A study of Mus musculus with 8 samples.

Results

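The clotting and complement proteins of plasma are made mostly by hepatocytes, and 36 genes that encode them were followed here in cultured mouse hepatocytes. The list holds clotting factors, the 3 fibrinogen chains, anticoagulant and fibrinolytic proteins, the contact system, and complement from its initiating proteases to its terminal pore. A member was taken from the probe sets to which the array annotation gives exactly 1 symbol, and among several of 1 gene that with the highest mean over the 8 arrays was used. This gave a value for 33 of the 36 members, among 13845 genes tested. Klkb1 (plasma prekallikrein) shared its only probe set with Cyp4v3, and Masp2 shared its only one with Tardbp, so neither was used. C3, the central complement component, had no probe set listed under its symbol and was not analysed here.

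The cells were primary hepatocytes of male C57Bl6J mice, and all groups were cultured in medium with 100 nM dexamethasone, a glucocorticoid. They received for 6 h DMSO (the solvent), 100 nM glucagon, 2 µM GW4064, or 100 nM glucagon together with 2 µM GW4064. Each treatment has 2 arrays, 1 from each of 2 experiments, and the hepatocytes of an experiment were pooled from 3 mice. The mice's age is not given in the sources used here. Values are log2 signals of an Affymetrix mouse gene array.

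Clotting is a cascade of serine proteases that ends with thrombin cutting fibrinogen into fibrin. Protein C, protein S, antithrombin and heparin cofactor II restrain it, and plasmin dissolves the clot. Complement is started by antibody-bound C1 or by mannose-binding lectins, passes through C4, C2 and C3, and ends with C6, C8 and C9 in a membrane pore. Most of these genes depend in the liver on the hepatocyte factors HNF1, HNF4 and C/EBP, and several are acute phase genes that respond to interleukin 6 through STAT3. Glucagon, released in fasting, acts on hepatocytes through cyclic AMP, and GW4064 is an agonist of the bile acid receptor FXR, which has been reported to raise fibrinogen transcripts in human hepatocytes.

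Array medians lay between 3.42 and 3.57. The GW4064 array of experiment 2 stood apart from the others: the median of odorant and pheromone receptor genes was 3.25 on it, and 2.95 to 2.98 on the other 7 arrays. Markers of hepatocytes were high (9 of 11 measured, mean signal 9.83 to 10.05 on the arrays of experiment 1 and 10.17 to 10.24 in experiment 2). Mean signals of the other marker lists were 3.95 to 4.22 for Kupffer cells, 4.02 to 4.41 for sinusoidal endothelium, 3.71 to 3.87 for stellate cells, 3.59 to 4.13 for cholangiocytes, 2.98 to 3.09 for lymphocytes and neutrophils, and 2.95 to 3.09 for platelets. The low-signal filter was passed by 9 of 11 Kupffer cell markers (not C1qc and Cd5l) and 10 of 12 of sinusoidal endothelium (not Clec4g and Tek). Of 10 stellate cell markers 5 passed (not Lrat, Des, Col1a1, Col3a1 and Hgf), and of 5 measured cholangiocyte markers 3 (not Krt7 and Cftr). Of 7 lymphocyte and neutrophil markers 3 passed (not Cd3e, Cd79a, Ms4a1 and S100a8), and of 3 measured platelet markers 1 (not Pf4 and Ppbp). This filter required a value above the 40th percentile of the array on at least 2 arrays (3.13 to 3.27).

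All 33 measured members lay above that level on all 8 arrays, with signals from 3.48 to 11.86. Mbl1, which encodes mannose-binding lectin A, was the member nearest to it, at 3.48 to 3.96. None was near saturation, taken as a signal within 1 log2 unit of the highest signal of its array (13.17 to 13.30). The closest were Fgb, whose smallest distance from the top was 1.32, and Fgg, at 1.73. Distance from the top does not show that a probe set responds linearly there, and no dilution series was used here.

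**Figure D1:**
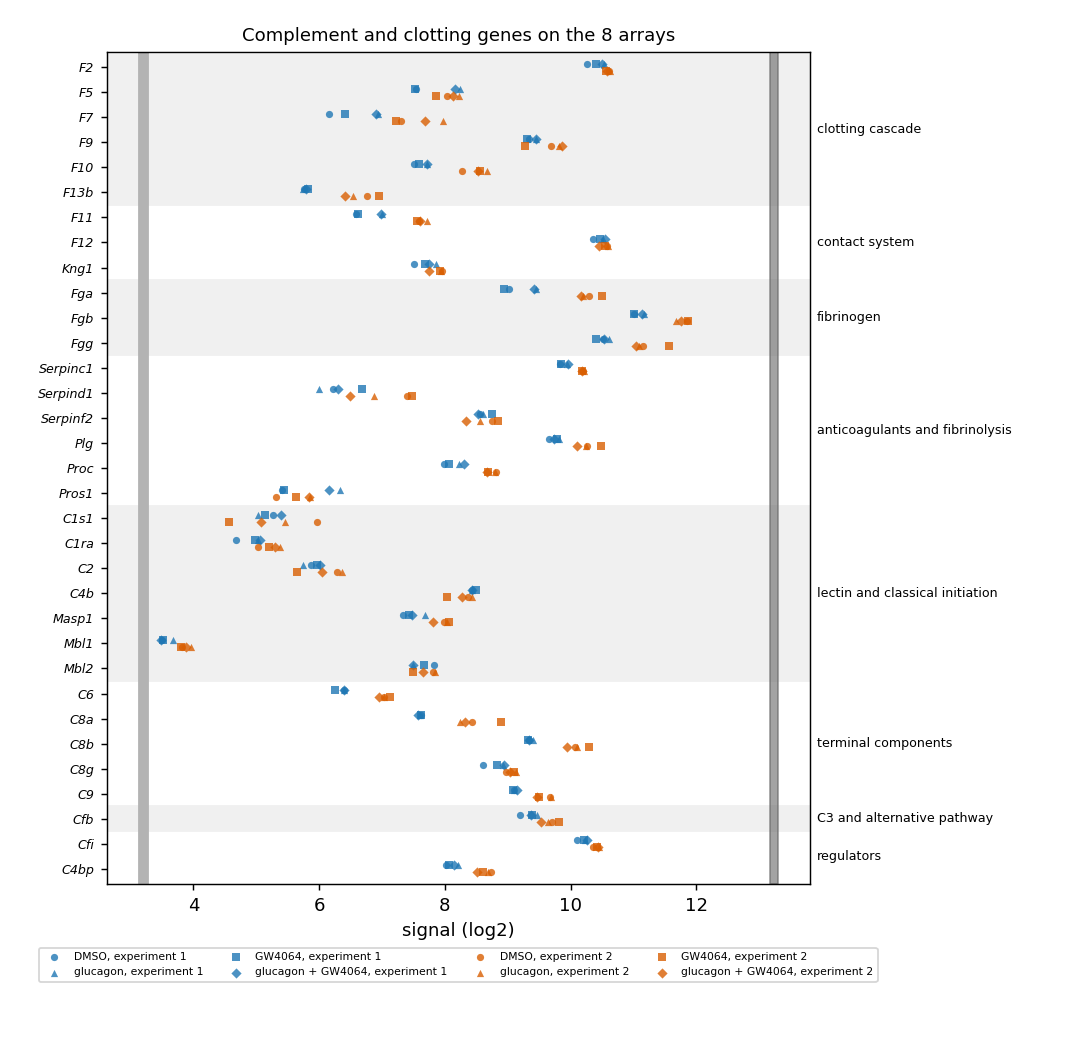
Log2 signal of the 33 measured complement and clotting genes (rows, by role) on each of the 8 arrays; blue is experiment 1, orange is experiment 2, and the symbol gives the treatment. The light band marks the low-signal filter level (3.13 to 3.27) and the dark band the highest signal of the arrays (13.17 to 13.30); for 21 of the 33 genes all orange points lie to the right of all blue points.

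All 3 fibrinogen chains, 4 of the 5 measured terminal complement components and the clotting genes F7, F10, F11 and F13b had higher signals in experiment 2 than in experiment 1. With treatment in the model, 16 of the 33 members were higher in experiment 2 and 0 were lower (limma, adjusted p below 0.05), where 2.64% of all genes tested were called higher and 2.52% lower (5.16% together). The members' differences ran from -0.18 to 1.08 with a median of 0.32, beside a median of -0.02 over all genes, and 31 of the 33 were positive. All 16 were higher in experiment 2 under each of the 4 treatments, by 1.39-fold to 2.12-fold on average. In 21 members every array of experiment 2 lay above every array of experiment 1, which 6.12% of all genes did, and in 0 every array lay below, as did 8.27% of all genes.

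Each experiment is 1 pool of cells, so the test measures the spread between arrays of these 2 pools, and pool, preparation and array run cannot be told apart. Leaving out 1 pair of arrays cost calls, and most without DMSO: without either DMSO array 0 of 33 members passed (26 of all genes, against 715 with all arrays; smallest adjusted p of a member 0.0531). The differences were about as large on those 3 pairs, at 0.91 for F10, 0.89 for C8a and 1.02 for Fga, with a median of 0.33 over the members. Leaving out either glucagon array gave 6 calls (129 of all genes). Leaving out either array with both agents gave 5 (111 of all genes), which were F7, F10, F11, F13b and Serpind1. Leaving out either GW4064 array, so also the one that stood apart, gave 15 (728 of all genes), of which 14 were among the 16. F9 was gained, and Serpind1 and Masp1 were lost.

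**Figure D2:**
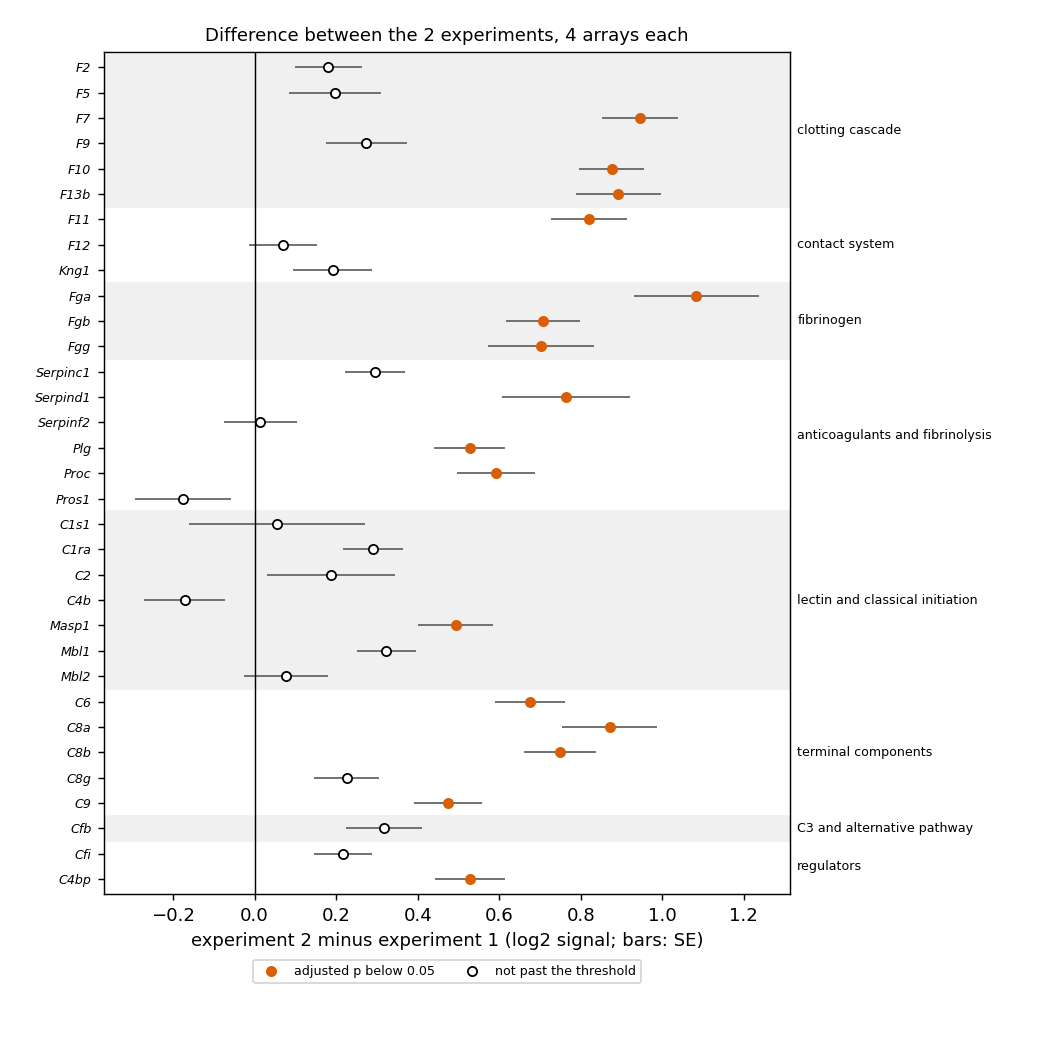
Difference between experiment 2 and experiment 1 (log2 signal, horizontal axis) for the 33 genes, with limma's standard error as bars, from 4 arrays per experiment. Filled points passed the test (16 genes, from 0.47 for C9 to 1.08 for Fga), and open points did not.

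The 3 fibrinogen chains were all among the 16. Fga, the alpha chain (probe set 17398499), had signals of 9.01 with DMSO, 9.45 with glucagon, 8.94 with GW4064 and 9.43 with both agents in experiment 1. In experiment 2 they were 10.29, 10.20, 10.50 and 10.17. The lowest value of experiment 2 thus lay above the highest of experiment 1, and the difference was 1.08 (SE 0.15, adjusted p = 0.017 by limma), the largest of any member. Fgb, the beta chain (17406252), read 11.00, 11.17, 11.01 and 11.14 in experiment 1, and 11.85, 11.68, 11.86 and 11.76 in experiment 2, in the same order of treatments (difference 0.71, SE 0.09, adjusted p = 0.0135). Fgg, the gamma chain (17398485), read 10.52, 10.61, 10.40 and 10.54, then 11.16, 11.08, 11.57 and 11.05 (0.70, SE 0.13, adjusted p = 0.0356). Its highest value was on the GW4064 array that stood apart, and the other 3 arrays of experiment 2 were above those of experiment 1 as well.

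Fgg, Fga and Fgb are neighbours in the RefSeq annotation. Their promoters are shown because all 3 chains were higher in experiment 2. Each line gives the 250 bases before the RefSeq transcription start of GRCm38.p6, 5′ to 3′ on the gene's strand. Capitals mark matches, on either strand, to the letters of known regulatory elements; a match is a description of the letters and does not show that a factor binds there. The letters searched were GTTAAT (HNF1 core), CAAAGTCCA (HNF4), TTGCNNAA (C/EBP), TTCNNNGAA (STAT3), TGACGTCA (the cyclic AMP response element, CRE), AGGTCA (the core of nuclear receptor elements) and the FXR element, in which AGGTCA and its reverse complement stand 1 base apart and which therefore contains an AGGTCA match.
Fga (chr3:83025903-83026152, + strand): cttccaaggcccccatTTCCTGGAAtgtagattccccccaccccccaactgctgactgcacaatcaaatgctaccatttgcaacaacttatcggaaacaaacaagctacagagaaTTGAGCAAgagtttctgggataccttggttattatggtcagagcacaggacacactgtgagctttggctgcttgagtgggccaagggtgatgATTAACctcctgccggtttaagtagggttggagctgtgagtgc
Fgb (chr3:83049864-83050113, - strand): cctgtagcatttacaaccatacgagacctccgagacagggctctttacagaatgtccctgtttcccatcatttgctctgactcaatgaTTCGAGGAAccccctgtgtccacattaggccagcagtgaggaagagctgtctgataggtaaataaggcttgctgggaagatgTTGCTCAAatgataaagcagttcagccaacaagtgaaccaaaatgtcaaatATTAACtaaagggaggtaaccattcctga
Fgg (chr3:83007474-83007723, + strand): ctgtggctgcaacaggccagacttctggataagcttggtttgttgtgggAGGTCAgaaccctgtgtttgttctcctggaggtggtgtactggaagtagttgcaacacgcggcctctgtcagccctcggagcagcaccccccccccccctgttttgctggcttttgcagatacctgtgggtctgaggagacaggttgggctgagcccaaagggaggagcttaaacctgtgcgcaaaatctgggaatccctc

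Fga and Fgb each held an HNF1 core match close to the start (43 to 38 and 29 to 24 bases before it), a C/EBP match (135 to 128 and 80 to 73) and a STAT3 match (234 to 226 and 162 to 154), in the same order. Fgg held only 1 match, the nuclear receptor core 201 to 196 bases before the start. RefSeq promoters were found for 25 of the 33 measured members, in 27 windows. The HNF1 core was in 7 of these windows (25.9%, against 6.43% of the 32851 windows of all genes), C/EBP in 6 (22.2% against 9.56%), STAT3 in 5 (18.5% against 7.02%) and the nuclear receptor core in 9 (33.3% against 14.02%). CRE, HNF4 and FXR letters were in 0 of the 27, against 1.55%, 0.38% and 0.01% of all windows. Only these exact letters were searched, so their absence does not show that a window lacks a site for the factor. The HNF1 core was in the windows of C1ra, C4bp, C8a, C8b, F13b, Fga and Fgb.

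In the clotting cascade, F7, F10 and F13b were higher in experiment 2. F7 (probe set 17499212) encodes factor VII, the partner of tissue factor that starts clotting. Its signals in experiment 1 were 6.16 with DMSO, 6.93 with glucagon, 6.41 with GW4064 and 6.90 with both, and in experiment 2 they were 7.31, 7.98, 7.22 and 7.68 (difference 0.94, SE 0.09, adjusted p = 0.00788). F10 (17499224), which encodes the protease that converts prothrombin, read 7.52, 7.72, 7.59 and 7.71, then 8.28, 8.67, 8.57 and 8.53 (0.88, SE 0.08, adjusted p = 0.00536). F13b (17217946), the carrier subunit of the fibrin-crosslinking factor XIII, read 5.75, 5.74, 5.82 and 5.79, then 6.76, 6.54, 6.96 and 6.41 (0.89, SE 0.10, adjusted p = 0.0127). For none of these 3 genes did the experiments overlap. F2 (prothrombin, 0.18), F5 (the cofactor of factor Xa, 0.20) and F9 (the tenase protease, 0.27) did not pass. Of the 6 measured members whose proteins carry vitamin K-dependent Gla residues, F7, F10 and Proc passed, while F2, F9 and Pros1 did not.

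F7 and F10 are adjacent genes. Their promoters are shown because both were among the largest differences between the experiments; the nuclear receptor core stands at a similar place in them, 34 to 29 and 30 to 25 bases before the start, on the opposite strand in both.
F7 (chr8:13025784-13026033, + strand): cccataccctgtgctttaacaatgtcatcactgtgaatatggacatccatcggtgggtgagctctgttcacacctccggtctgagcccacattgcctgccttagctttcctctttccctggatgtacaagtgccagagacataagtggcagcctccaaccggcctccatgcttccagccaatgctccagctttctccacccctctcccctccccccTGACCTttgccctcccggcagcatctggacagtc
F10 (chr8:13037058-13037307, + strand): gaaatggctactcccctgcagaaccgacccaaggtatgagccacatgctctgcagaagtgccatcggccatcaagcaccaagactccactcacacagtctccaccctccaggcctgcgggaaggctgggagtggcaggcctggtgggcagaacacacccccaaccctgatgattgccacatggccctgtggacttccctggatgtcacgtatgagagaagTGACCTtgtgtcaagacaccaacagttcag

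Among the terminal components, C6, C8a, C8b and C9 were higher in experiment 2 and C8g was not called. C8a (probe set 17427729), the alpha chain of the pore protein C8, read 7.62, 7.60, 7.62 and 7.57 in experiment 1 and 8.43, 8.25, 8.89 and 8.32 in experiment 2 (0.87, SE 0.12, adjusted p = 0.0149). C8b (17416196), the beta chain, read 9.33, 9.41, 9.32 and 9.35, then 10.07, 10.10, 10.29 and 9.94 (0.75, SE 0.09, adjusted p = 0.0131). Both chains were nearly level across treatments in experiment 1, and both had their highest value on the GW4064 array that stood apart. C8g, the gamma chain, a lipocalin encoded elsewhere in the genome, differed by 0.23 (SE 0.08, adjusted p = 0.154). C6 (17309832), which joins the forming pore before C8, read 6.40, 6.39, 6.24 and 6.40, then 7.03, 7.03, 7.13 and 6.95 (0.68, SE 0.09, adjusted p = 0.0135). C9 (17309965), which polymerises into the pore, read 9.09, 9.11, 9.09 and 9.15, then 9.68, 9.69, 9.49 and 9.47 (0.47, SE 0.08, adjusted p = 0.0321). Neither gene's values overlapped between the experiments. The promoters of the adjacent genes C8a and C8b follow; each held an HNF1 core match, 107 to 102 and 206 to 201 bases before the start.
C8a (chr4:104876399-104876648, - strand): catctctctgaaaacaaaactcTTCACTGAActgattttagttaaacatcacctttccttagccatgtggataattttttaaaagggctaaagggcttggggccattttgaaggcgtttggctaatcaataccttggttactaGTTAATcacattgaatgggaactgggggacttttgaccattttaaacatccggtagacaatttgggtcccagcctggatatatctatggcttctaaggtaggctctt
C8b (chr4:104766067-104766316, + strand): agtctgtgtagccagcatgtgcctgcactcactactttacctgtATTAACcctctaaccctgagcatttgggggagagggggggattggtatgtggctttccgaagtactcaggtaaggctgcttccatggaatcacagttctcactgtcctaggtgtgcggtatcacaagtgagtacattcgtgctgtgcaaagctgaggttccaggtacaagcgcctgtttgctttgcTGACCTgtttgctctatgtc

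The anticoagulant and fibrinolytic group was mixed. Proc (probe set 17353320), the anticoagulant protease protein C, read 7.98, 8.22, 8.07 and 8.31 in experiment 1 and 8.81, 8.80, 8.69 and 8.67 in experiment 2, and was higher there (0.59, SE 0.10, adjusted p = 0.0247). Plg (17333267), plasminogen, the precursor of plasmin, read 9.66, 9.82, 9.79 and 9.74, then 10.27, 10.25, 10.48 and 10.10 (0.53, SE 0.09, adjusted p = 0.0265). Serpind1 (17323457), heparin cofactor II, read 6.22, 6.00, 6.68 and 6.29, then 7.40, 6.88, 7.47 and 6.49 (0.76, SE 0.16, adjusted p = 0.0457; 0.0529 with no low-signal filter). Of these 3 genes Serpind1 alone overlapped between the experiments, its lowest value of experiment 2 lying below its highest of experiment 1. Serpinc1, the antithrombin gene, differed by 0.30 (SE 0.07, adjusted p = 0.0735) without overlap between the experiments, at 9.83 to 9.95 and 10.18 to 10.21. Serpinf2, the plasmin inhibitor, read 8.56, 8.61, 8.75 and 8.52, then 8.74, 8.56, 8.85 and 8.33, and differed by 0.01, and Pros1, protein S, by -0.18. Pros1 and the complement gene C4b (-0.17) were the only 2 of the 33 with lower mean values in experiment 2. In the contact system, F11 (17509035), which activates factor IX, read 6.594, 6.996, 6.620 and 6.988, then 7.59, 7.71, 7.56 and 7.61, with no overlap (0.82, SE 0.09, adjusted p = 0.0119), while F12 (0.07), the contact factor, and Kng1 (0.19), kininogen, did not pass.

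Of the 7 measured genes that initiate complement, Masp1 (probe set 17329403), a protease bound to mannose-binding lectin, was the only one called. It read 7.34, 7.69, 7.44 and 7.48, then 7.99, 8.04, 8.07 and 7.82 (0.49, SE 0.09, adjusted p = 0.0361; 0.0512 without either GW4064 array). Mbl1 differed by 0.32 (adjusted p = 0.0585), C1ra, the C1r protease, by 0.29 (0.0766), C2 by 0.19, Mbl2, mannose-binding lectin C, by 0.08 and C1s1, the C1s protease, by 0.06. C4b, C1ra and C1s1 have close relatives in the genome, so their probe sets may read more than 1 gene. Cfb, factor B of the alternative pathway, read 9.19, 9.46, 9.38 and 9.37, then 9.70, 9.64, 9.81 and 9.53, which did not overlap, but the difference of 0.32 did not pass (adjusted p = 0.103). Of the regulators, C4bp (17226655), the binding protein that helps cleave C4b, read 8.02, 8.21, 8.07 and 8.15, then 8.74, 8.69, 8.61 and 8.52 (0.53, SE 0.09, adjusted p = 0.0258), and Cfi, the cleaving protease factor I, differed by 0.22 (adjusted p = 0.136).

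Other liver and non-liver markers differed between the experiments too, and their part in these differences was not tested. Of 9 tested hepatocyte markers, Cyp2e1 was higher in experiment 2 (0.64, limma adjusted p = 0.0132). The list's median was 0.32, beside -0.02 over all genes, and Alb differed by 0.10. Of 10 tested markers of sinusoidal endothelium all had negative differences, while 45.5% of all genes had positive ones. Their mean signal was 4.36 to 4.41 in experiment 1 and 4.02 to 4.12 in experiment 2. Called lower were Lyve1 (-1.02), Oit3 (-0.71) and Fcgr2b (-0.47). Of 9 Kupffer cell markers Cd68 (0.43) and Marco (0.38) were higher, and of 5 stellate cell markers Reln (0.84) and Dcn (0.67). Over all genes tested, 2.64% were called higher and 2.52% lower. In bulk cultures fewer cells of a type and less RNA per cell cannot be told apart. Among 15 tested transcription factors and receptors known to act on these genes 0 passed by limma, with 3 at an unadjusted p under 0.05; Hnf4a differed by 0.81 (adjusted p = 0.0536) and Cebpa by -0.53 (0.0513).

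Of 37 other complement and clotting genes tested (52 listed), 4 were higher in experiment 2: Hrg, the histidine-rich glycoprotein (0.62, adjusted p = 0.0135), Proz, protein Z (0.71, 0.0338), Cfhr2, a relative of factor H (0.52, 0.0265), and Hc, which encodes C5 (0.36, 0.0477). Plaur, the urokinase receptor, was lower (-0.99, 0.0175). Among all genes tested 2.64% were called higher and 2.52% lower. The median difference of the 37 was 0.10, beside -0.02 over all genes.

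Glucagon called no member in the model without the experiment. Averaged over the arrays without and with GW4064 (4 arrays with glucagon against 4 without), 0 of 33 members passed by limma and 2 had an unadjusted p under 0.05; 1.32% of all genes were called. With the experiment as a block, so that arrays are compared within a cell pool, F7 and Pros1 passed and both were higher. With that block 5.76% of all genes were called, 2.67% higher and 3.08% lower. The members' differences ran from -0.53 to 0.60 with a median of 0.06, beside -0.004 over all genes.

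F7 was higher with glucagon in each matched pair, by 0.77 in experiment 1 and 0.67 in experiment 2 without GW4064, and by 0.49 and 0.46 with it. The average was 0.60, or 1.51-fold (limma adjusted p = 0.519, or 0.0194 with the block, where the SE was 0.09). With the block and without the GW4064 array that stood apart it was 0.55. With both experiments put together, the 4 glucagon arrays overlapped the 4 others, at 6.90 to 7.98 and 6.16 to 7.31. In the fit without the block the average moved with each array left out. It was 0.31 without the DMSO array of experiment 1 and 0.34 without the glucagon array of experiment 2. It was at most 0.88, without the DMSO array of experiment 2. Such a fit no longer balances the experiments, so their difference for F7 (0.945) enters these values.

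Pros1 (probe set 17326510) encodes protein S, the cofactor of protein C. Its signal went from 5.42 to 6.33 with glucagon in experiment 1 and from 5.31 to 5.86 in experiment 2, and with GW4064 from 5.44 to 6.15 and from 5.62 to 5.84. All 4 arrays with glucagon thus lay above all 4 without it. The average was 0.60, or 1.51-fold (limma adjusted p = 0.111, or 0.0396 with the block, where the SE was 0.12). With the block and without the GW4064 array that stood apart it was 0.72. Its promoter is shown because Pros1 was 1 of only 2 members called for glucagon. It held 1 match, to the STAT3 letters, and none to the CRE letters.
Pros1 (chr16:62854057-62854306, + strand): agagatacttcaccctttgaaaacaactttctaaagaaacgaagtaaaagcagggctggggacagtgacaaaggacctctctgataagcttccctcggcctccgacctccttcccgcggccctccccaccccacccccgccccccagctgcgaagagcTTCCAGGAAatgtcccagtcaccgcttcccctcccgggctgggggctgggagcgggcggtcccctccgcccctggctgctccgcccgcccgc

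In all, 9 members were higher with glucagon in each of the 4 matched pairs (F2, F5, F7, F9, F11, Serpinc1, Pros1, C1ra and Cfi), as were 15.4% of all genes, and F13b, Serpind1 and C8a were lower in each, as were 16.7% of all genes. F5 (17218861) went from 7.54 to 8.24 with glucagon in the first experiment and from 8.03 to 8.22 in the other, and from 7.52 to 8.15 and 7.86 to 8.14 where GW4064 was present. All 4 glucagon arrays lay above the others, and the average of 0.45 (SE 0.14) had an adjusted p of 0.193 by limma, 0.0708 with the block. Serpind1 had the lowest average, -0.53 (SE 0.33, limma adjusted p = 0.521 and 0.109 with the block). It went from 6.22 to 6.00 and from 7.40 to 6.88, and with GW4064 from 6.68 to 6.29 and from 7.47 to 6.49. Among the cell type markers, glucagon called none on average without the block, and with it Cps1, a urea cycle gene of the hepatocyte list (0.46, adjusted p = 0.024), was the only one.

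**Figure D3:**
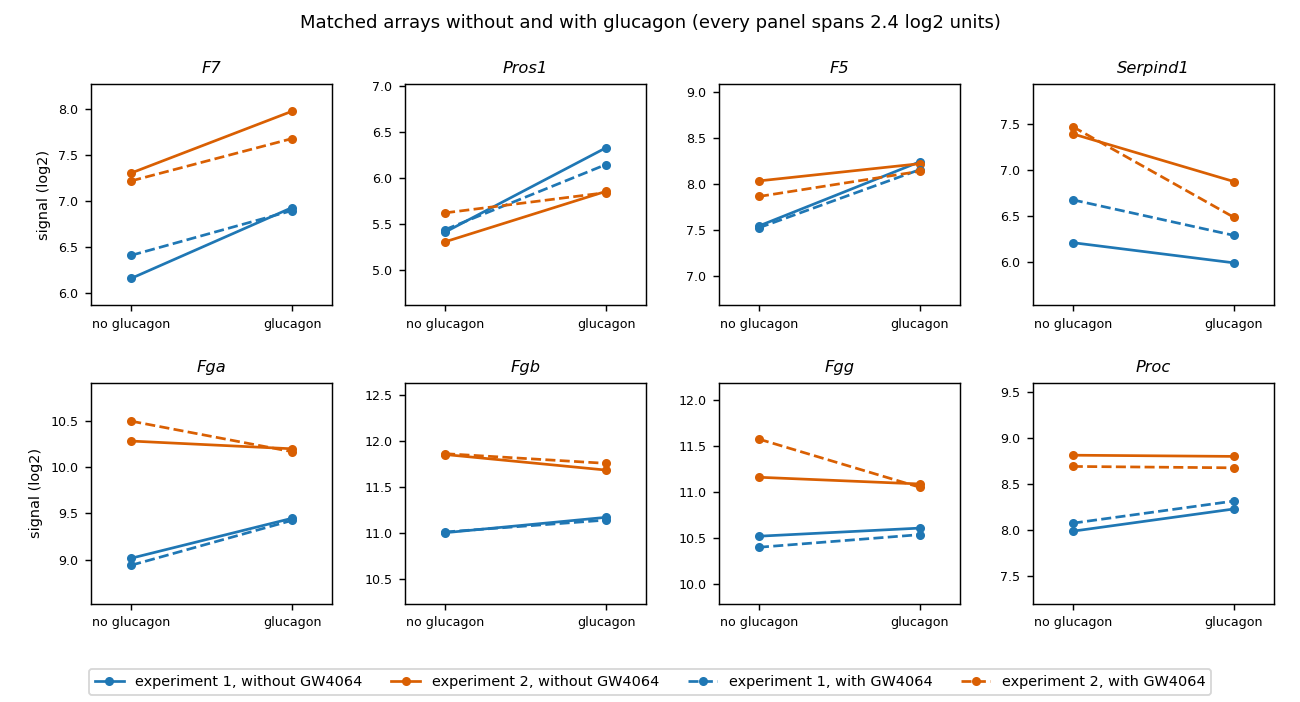
Log2 signal (vertical axis) of 8 genes on matched arrays without and with glucagon; blue is experiment 1 and orange experiment 2, solid lines are without GW4064 and dashed lines with it. All 4 lines go up for F7, Pros1 and F5 and down for Serpind1, while for Fga, Fgb, Fgg and Proc the blue lines go up and the orange lines down.

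Each comparison of a pair of treatments rests on 2 arrays against 2. For glucagon against DMSO 0 of 33 members passed by limma (1 at an unadjusted p under 0.05), with 0.116% of all genes called, and 0 with the block, with 0.925% called. The members with the largest differences were Pros1 (0.73, SE 0.19), F7 (0.72, SE 0.52) and F5 (0.44, SE 0.19). With the block and without the GW4064 array that stood apart, the differences were again 0.73 for Pros1 and 0.72 for F7. In the presence of GW4064, glucagon again called 0 (3 at an unadjusted p under 0.05; 0.166% of all genes, and 0 members and 1.06% with the block), and the largest differences were in Serpind1 (-0.68, SE 0.46), F7 (0.47) and Pros1 (0.46). For the combined treatment against DMSO 0 passed (1 at an unadjusted p under 0.05; 0.123% of all genes, and 0 members and 0.737% with the block), with Pros1 at 0.63 (SE 0.19), F7 at 0.56 and Serpind1 at -0.41. These comparisons share arrays.

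The sign of the glucagon difference was not the same in both experiments for many members, a pattern examined after the values had been seen. The mean of the 2 matched pairs was positive for 26 of 33 members in experiment 1 (median 0.13, from -0.30 for Serpind1 to 0.81 for Pros1) and for 15 in experiment 2 (median -0.01, from -0.75 for Serpind1 to 0.57 for F7). In 26 members it was larger in experiment 1, a median change of -0.20 from experiment 1 to 2, beside a median of 0.02 over all genes, of which 53.6% had a positive value. Fga, Fgb, Fgg, Proc, Kng1 and C4bp were higher with glucagon in both pairs of experiment 1 and lower in both of experiment 2, which held for 5.73% of all genes; C4b and Mbl2 showed the opposite signs, as did 4.95% of all genes. For Fga the pairs were 0.43 and 0.49 in experiment 1, and -0.08 and -0.33 in experiment 2. The difference of the differences was -0.67 (SE 0.17, limma adjusted p = 0.364), and with 2 residual degrees of freedom 0 of 33 members and 0% of all genes passed (2 members, Fga and F5, at an unadjusted p under 0.05). Without either DMSO array the members' median change was -0.15. The side without glucagon then rests on the GW4064 arrays alone, among them the one that stood apart, with still fewer degrees of freedom. Calls from that fit are therefore not read.

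**Figure D4:**
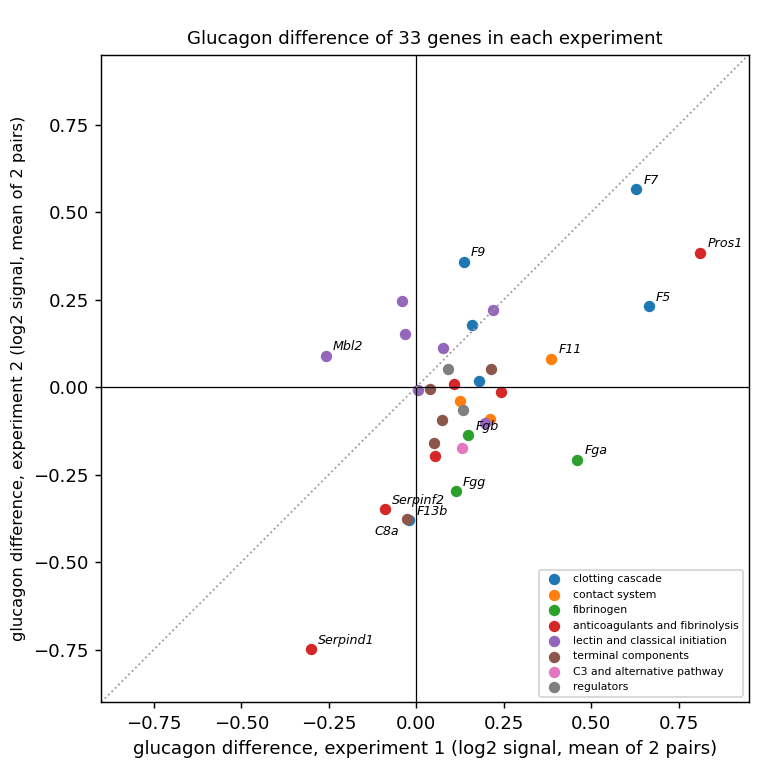
Glucagon difference (log2 signal, mean of the pair without and the pair with GW4064) of the 33 genes in experiment 1 (horizontal) and experiment 2 (vertical), coloured by role; the dotted line marks equal differences. Most points lie below that line (26 of 33), and the 3 fibrinogen chains lie to the right of 0 in experiment 1 and below 0 in experiment 2.

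Among the 37 other complement and clotting genes glucagon called 1 on average (1.32% of all genes were called), and 2 with the block (5.76% of all genes). Mcfd2, which with Lman1 forms the cargo receptor that carries factors V and VIII out of the endoplasmic reticulum, fell by 0.79 on average (SE 0.11, limma adjusted p = 0.0255, and 0.00958 with the block). It was the gene called in both fits. With the block Plaur also passed (-1.56, adjusted p = 0.143, or 0.00339 with the block). Of the 15 transcription factors and receptors 0 passed by limma without the block (4 at an unadjusted p under 0.05) and 1 with it, Foxa2, a forkhead factor of hepatocytes (0.62, adjusted p = 0.0659, or 0.0293 with the block). The FXR gene Nr1h4, at -0.56, passed in neither fit (0.146, or 0.0675 with the block).

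GW4064 called no member in any comparison, and no gene of the array was called in any of them with all 8 arrays, with or without the block. Without the GW4064 array of experiment 1, so that only the one that stood apart was left, 406 genes were called for GW4064 against DMSO, and again 0 members. On its own against DMSO, 0 of 33 passed by limma and 1, C1s1, had an unadjusted p under 0.05 (0% of all genes, with and without the block). C1s1 (probe set 17462889) read 5.27 with DMSO, 5.03 with glucagon, 5.15 with GW4064 and 5.39 with both in experiment 1. In experiment 2 it read 5.97, 5.46, 4.57 and 5.07. The mean difference was -0.76 (SE 0.30), with -0.12 in the pair of experiment 1 and -1.40 in that of experiment 2. From experiment 1 to 2 the DMSO value was 0.70 higher and the GW4064 value differed by -0.58, so both arrays of experiment 2 enter the gap between the pairs. Serpind1 (0.27, SE 0.46), C2 (-0.27, SE 0.24) and Mbl2 (-0.24, SE 0.15) came next. C2, the serine protease that completes the classical C3 convertase, read 5.87, 5.74, 5.97 and 6.01, then 6.28, 6.36, 5.64 and 6.05, with its lowest value on that array too. Mbl2 read 7.83, 7.50, 7.68 and 7.49, then 7.82, 7.84, 7.50 and 7.66. The members' median was 0.07, and -0.03 over all genes. In the matched pairs the members' median was 0.06 in experiment 1 (23 of 33 positive, 51.1% of all genes). In experiment 2 it was 0.01 (17 of 33 positive, 40% of all genes). The median over both experiments, fitted without the block, changed sign with single arrays. It was -0.23 when the DMSO array of experiment 1 was left out and 0.33 when that of experiment 2 was. Leaving out a GW4064 array gave 0.29 (experiment 1) and -0.21 (experiment 2). Such a fit sets an array of 1 experiment against arrays of both. The difference between the experiments, a median of 0.585 for the members with DMSO, therefore enters it. The fibrinogen chains differed by 0.07 for Fga, 0.01 for Fgb and 0.15 for Fgg. For Fgg this was -0.12 in experiment 1 and 0.41 in experiment 2, the latter again on the array that stood apart.

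On top of glucagon, 29 of 33 members had negative differences with GW4064, within a narrow range of -0.21 (Masp1) to 0.03. Of all genes 48.7% had positive differences. The members' median was -0.05, beside -0.004 over all genes. The array that stood apart does not enter these differences, but it enters the spread behind the SEs and p-values. By limma 0 passed and 0 had an unadjusted p under 0.05 (0% of all genes). In experiment 1 the members' median was -0.01, with 14 of 33 positive (47.6% of all genes). In experiment 2 it was -0.13, with 3 of 33 positive (50.9% of all genes). The largest after Masp1 (-0.21, SE 0.30) were F7 (-0.17, SE 0.52) and Serpinf2 (-0.16, SE 0.13). With the block the SE was 0.13 for each of these genes. Again 0 members passed by limma and 0 had an unadjusted p under 0.05 (0% of all genes called). Fga differed by -0.03, Fgb by 0.02 and Fgg by -0.05.

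Averaged over both backgrounds, GW4064 gave 0 calls among the members, 0 at an unadjusted p under 0.05 and 0% of all genes, with C1s1 (-0.39, SE 0.21), Mbl2 (-0.16, SE 0.11) and C2 (-0.15, SE 0.17) furthest from 0. In all 4 matched pairs 0 members were higher with GW4064 (5.66% of all genes), and F5 and Mbl2 were lower (8.05% of all genes). The interaction, which asks whether the glucagon difference depends on GW4064, called 0 members, with 0 at an unadjusted p under 0.05 and 0% of all genes. Its values ran from -0.32 for Serpind1 and -0.31 for Serpinf2 (SE 0.19) to 0.75 for C1s1 (SE 0.42). They were positive for 8 of 33 members and 56% of all genes, and the median was -0.10 beside 0.03 over all genes. The value of C1s1 again involves the GW4064 array of experiment 2.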

How the data were processed

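Expression was measured on 8 single-channel arrays, 2 per treatment. Per the labels, GeneSpring was used and 2 technical replicates were pooled into each sample. The authors' deposited values run in the range of log2 signals, which is the basis for that unit; the sources used here do not give GeneSpring's version or how signals were background-corrected and normalized. The annotation gave 23521 of 41345 probe sets 1 symbol, 1814 several and 16010 none. The tests were limma's (3.58.1, in R 4.3.3), over 13845 genes past the filter (above the 40th percentile on at least 2 arrays), with 1 mean per group and no block (4 residual degrees of freedom); the comparison of the experiments had treatment and experiment as terms (3). P-values are two-sided, adjusted by Benjamini and Hochberg within each comparison, and called below 0.05. SE is limma's.

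The labels give each experiment its own cell pool, divided over the treatments, so arrays pair by experiment; deviations from group means correlated at 0.350 to 0.620 within an experiment over the 6 pairs of groups. Members, lists, role groups and motif letters were chosen with earlier results of these data known. Given on all 8 arrays are the members called in any comparison, the fibrinogen chains, the 3 largest differences per planned comparison and the member of each role with the largest difference. The test of the glucagon difference between experiments was added after seeing the data. No genome build is named for the arrays; sequences are RefSeq's for GRCm38.p6, matched by symbol. The steps were tested on simulated data. Alternatives were the block, quantile normalization, no filter, the mean of a gene's probe sets, and leaving out each array. The number of arrays limits the precision.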

Additional observations from a re-analysis of the deposited data

How the results depend on the processing

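The counts of called members for the treatment comparisons were 0 with quantile normalization, with no low-signal filter, with the mean of a gene's probe sets and without any 1 array. With the experiment as a replicate block, the count for the glucagon average was 2 (F7 and Pros1). With the block and without the GW4064 array of experiment 2, the average difference was 0.55 for F7 and 0.72 for Pros1. The block changed no other count of members, but it moved the count of all genes called for the glucagon average from 183 to 797, and from 16 to 128 for glucagon against DMSO. For experiment 2 against experiment 1 the count of 16 was 16 with quantile normalization, 15 with no filter (Serpind1 lost) and 16 with the mean of probe sets. When 1 array was left out it ranged from 0 to 15, and the count of all genes from 26 to 728. Leaving out an array also removes its partner of the other experiment from that comparison, so both arrays of a treatment give the same fit on 3 pairs. The differences themselves ranged from 0.92 to 1.20 for Fga and 0.88 to 1.00 for F7 over the 11 alternatives, and no sign changed for the 16. The count for the change of the glucagon difference between experiments, added after seeing the data, was 0 to 4 with 1 array left out. The 4 came only from the fit without either DMSO array, which called a larger share of all genes than of the members. Calls from that fit are not read, as the side without glucagon then rests on the GW4064 arrays alone. Among the alternatives for single genes, 169 values kept their direction and their side of the threshold, 79 kept the direction and no longer passed, 6 newly passed, and 0 reversed. At a margin of 0.5 log2 units 0 members were near saturation, as at 1.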
